A study of Homo sapiens with 19 samples.

Results

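The RNA of a pellet spun from the medium of Caco-2 cells at 40000 xg (P40) was set against the RNA of the cells themselves. The 4 libraries titled as the P40 pellet and the 3 titled as cell lysate were taken by their titles, which gave 7 of the 19 libraries of the series. Caco-2 is an established human colorectal line of epithelial cells, labelled here as wild type. In the series, small RNA was sequenced from these cells and from several fractions of their medium, and mature human miRNAs were counted. For P40, medium was first cleared of debris, the remaining fluid was spun at 40000 xg, and the pellet went into Trizol. For lysate, the cells went into Trizol. Both groups came from cells grown in DMEM with 20% FBS, which at 80% confluence spent 24 h in medium that held neither serum nor antibiotics. RealSeq-AC libraries were read as single ends of 50 nt. The labels name no step that separates vesicles from other particles in the pellet. They give a batch number equal to the replicate number and do not say whether replicates were separate cultures, so each p-value reflects no more than how far the libraries scatter, which may be technical.

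miRNAs are made in most cases by trimming of a hairpin, first by Drosha in the nucleus and then by Dicer in the cytoplasm, after which 1 strand is held by an Argonaute protein and the other is mostly lost. Bases 2 to 8 of the mature strand, the seed, pair with target transcripts, so miRNAs that share a seed form a family. Cells also release RNA, enclosed in vesicles, bound to proteins or in larger particles, and a spin of moderate speed collects the larger of these. Some miRNA entries in databases lie in, or copy the sequence of, ribosomal RNA (rRNA), transfer RNA (tRNA) or other non-coding RNA, so fragments of those RNAs can be counted under a miRNA name.

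The sequences on which the comparison turns are given first, from RefSeq (GRCh38.p14), 5′ to 3′ with the seed in capitals. The first set are entries resembling other RNA classes, shown because their reads may not stem from miRNA hairpins. miR-10396b lies in the 45S rRNA gene RNA45SN1 (the 5p strand at chr21:8436324-8436343), and miR-10396a-5p, 19 nt long, is contained in miR-10396b-5p from its base 2.
miR-10396b-5p: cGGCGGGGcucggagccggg
miR-10396a-5p: gGCGGGGCucggagccggg
miR-663a: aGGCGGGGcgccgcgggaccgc
miR-10396b-3p: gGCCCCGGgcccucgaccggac
miR-10396a-3p: gGCCCCGGgcccucgaccggg
miR-1246: aAUGGAUUuuuggagcagg
miR-4485-3p: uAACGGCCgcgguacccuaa
miR-4454: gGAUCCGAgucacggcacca
miR-1260b: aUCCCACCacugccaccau

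The second set are hairpin-derived miRNAs that differ little from a relative, shown because the relatives took different values. Counting from 1 at the 5′ end, miR-107 differs from miR-103a-3p by G22C, miR-23b-3p from miR-23a-3p by U19A and by its length, and miR-106a-5p from miR-17-5p by C1A. How reads fitting 2 such names were assigned is not given in the sources used here, so values of single relatives are uncertain.
miR-103a-3p: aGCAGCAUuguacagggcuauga
miR-107: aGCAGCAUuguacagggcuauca
miR-23a-3p: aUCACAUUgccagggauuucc
miR-23b-3p: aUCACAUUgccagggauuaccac
miR-17-5p: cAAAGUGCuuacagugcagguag
miR-106a-5p: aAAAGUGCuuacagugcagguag
miR-93-5p: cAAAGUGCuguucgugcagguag

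The third set are the 2 strands of the gut hairpin miR-194 and of its neighbour miR-192, of which 1 strand each was called.
miR-194-5p: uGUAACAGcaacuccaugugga
miR-194-3p: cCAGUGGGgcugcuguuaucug
miR-192-5p: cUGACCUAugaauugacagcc
miR-192-3p: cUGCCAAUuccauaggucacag

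The P40 libraries held 14405, 19040, 26096 and 10490 miRNA counts in replicates 1 to 4, and the lysate libraries 37453, 157051 and 65996 in replicates 1 to 3. P40 listed 289 to 349 miRNAs per library and lysate 325 to 471. A floor of 3 counts equalled 115 to 286 CPM in P40 and 19.1 to 80.1 CPM in lysate (CPM, here a count scaled to the library's total alone), so a low miRNA was harder to see in P40. Of 638 miRNAs listed in either group, 374 were in both, 92 in P40 alone and 172 in lysate alone. Those listed in 1 group alone held 0.525% of P40 counts and 0.342% of lysate counts. Over tested miRNAs, pairs of P40 libraries had a mean Spearman correlation of 0.818, pairs of lysate libraries 0.898, and pairs across the groups 0.713. P40 replicates 1 and 2 reached 0.902 with each other and replicates 3 and 4 0.853, whereas the pairs between them lay between 0.761 and 0.805. Lysate replicate 1 stood at 0.883 and 0.855 with the other 2, which reached 0.956 with each other. All other CPM values are shares of a library after TMM scaling, which sets libraries level by the bulk of their miRNAs. They say nothing of the amount of a miRNA, and fewer particles or cells cannot be told apart from less RNA in each.

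Of 22 tested entries that resemble other RNA classes, 16 were called higher in P40 than in lysate and 2 lower. In a fit of only the 7 libraries, 16 such entries were tested, with 9 higher and 1 lower. The miR-10396 and miR-663 entries were far higher in P40, as was the blood cell miRNA miR-451a. P40 held less of several abundant cell miRNAs, among them miR-103a-3p, miR-107, miR-200c-3p and miR-194-3p. Across 227 miRNAs, edgeR's quasi-likelihood test called 31 higher in P40 (13.7%) and 30 lower (13.2%). A call needed a Benjamini-Hochberg adjusted p under 0.05, whatever the fold, and a miRNA that was not called is not shown to be unchanged. With library size as the only scaling, which moved the median log2 fold change of all miRNAs by 0.35, the split was 47 higher and 19 lower, and with DESeq2's size factors, which moved it by 0.12, it was 38 and 29. The miRNAs called higher made up 8.05%, 7.86%, 6.52% and 6.21% of counts in P40 replicates 1 to 4, against 1.24%, 0.683% and 0.682% in lysate replicates 1 to 3. Those called lower made up 33.9%, 35.9%, 28.4% and 23.3% in P40, against 55.8%, 50.6% and 50.7% in lysate. Among called miRNAs, the rises therefore held few reads and the falls many. Uncalled miRNAs took up the rest of each library, so this split describes the called miRNAs and not all reads. Of the 61 called, 25 lay higher in every P40 library than in every lysate library and 27 lower, while 12.8% and 13.2% of all tested miRNAs did so. In the plot of fold change by level, the rises lie at low and middle levels and the falls reach the most abundant miRNA.

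**Figure D1:**
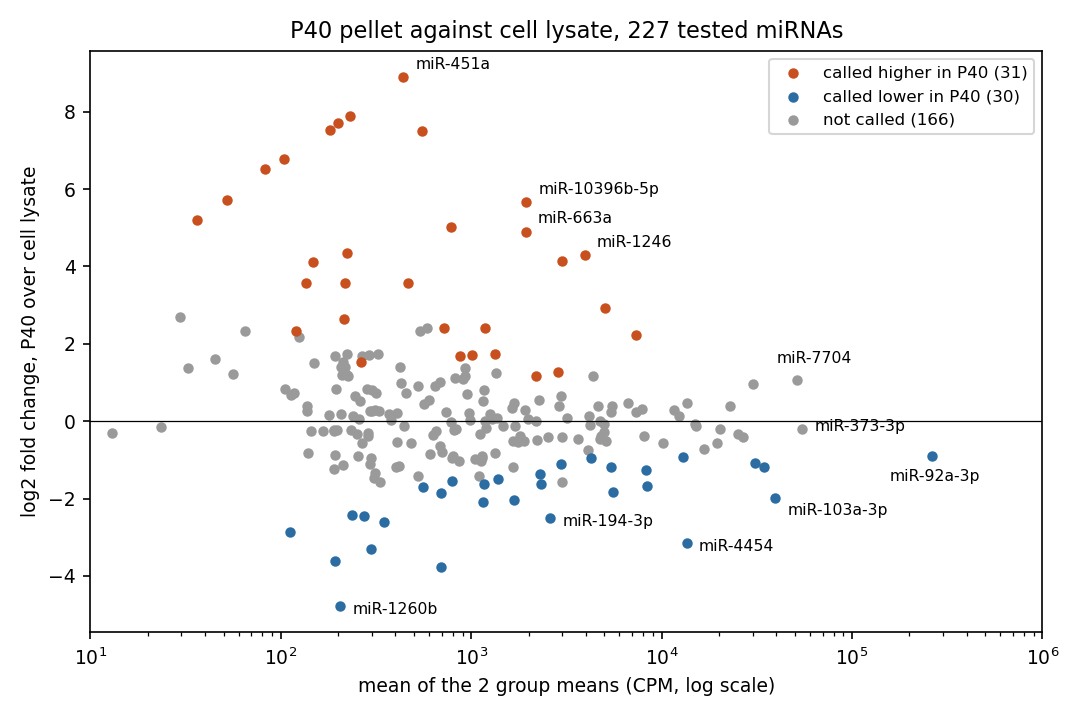
Log2 fold change of P40 over lysate (vertical axis) by the mean of the 2 group means in CPM (horizontal, log scale) for the 227 tested miRNAs, 1 point each, coloured by call (31 higher, 30 lower). miR-92a-3p, at the far right, was called lower, and most of the largest rises were miRNAs of low level.

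The miR-10396 strands and the miR-663 entries, which resemble rRNA, were all called higher. miR-10396b-5p stood at 3492, 3821, 4780 and 3123 CPM in P40 replicates 1 to 4, against 138, 43.8 and 79.5 CPM in lysate replicates 1 to 3. The P40 libraries lay close together and far above every lysate library. The log2 fold change was 5.66 ± 0.50 (SE; 3804 ± 711 CPM in P40, SD, n = 4, and 87.1 ± 47.4 CPM in lysate, n = 3; edgeR adjusted p = 1.58e-08). miR-10396a-5p, whose 19 bases all lie in miR-10396b-5p, held 83 counts in P40 and 1 in lysate, a ratio of 247 (exact 95% counting interval 43.1 to 9858). The other strands behaved alike: miR-10396b-3p (998, 1486, 273 and 781 CPM in P40, against 0, 139 and 15.9 CPM in lysate) rose by 3.58 ± 0.71 and miR-10396a-3p by 4.36 ± 0.75 on the log2 scale. Without lysate replicate 2, which held most of the lysate counts of these strands, the values were 6.03 and 7.60. The 4 miR-10396 strands together took 0.701%, 0.683%, 0.724% and 0.639% of counts in P40, against 0.0107%, 0.0197% and 0.00909% in lysate.

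miR-663a, which shares its seed with miR-10396b-5p, stood at 7171, 2653, 2936 and 2264 CPM in P40, against 34.5, 212 and 63.6 CPM in lysate. P40 replicate 1 was the highest, and even the lowest P40 library lay above all lysate libraries (log2 fold change 4.90 ± 0.94, edgeR adjusted p = 0.000557; 6.07 without lysate replicate 2). miR-663b had 31 counts in P40 and 0 in 260500 lysate counts, at least 30.7-fold higher, with the floor of 3 counts set over the lysate group. Replicate 4 held the highest P40 level (1015 CPM, against 212 to 312 CPM in the other 3), and without that library the fitted log2 fold change was 7.16 in place of 7.89. miR-9901, whose seed none of these share, rose as well (1122, 2123, 1776 and 1093 CPM in P40, against 34.5, 80.4 and 0 CPM in lysate; log2 fold change 5.01 ± 0.64, and 6.78 without lysate replicate 2). It was on none of the lists used here. miR-663a, miR-663b, miR-10396a, miR-10396b, miR-3648 and miR-3687, the entries placed with rRNA, summed to 1.59%, 0.987%, 1.11% and 1.08% of counts in P40, against 0.0214%, 0.0509% and 0.0258% in lysate.

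miR-1246 and miR-4485-3p carried exact copies of stretches of other RNAs. In the GENCODE v29 transcripts of 11 non-coding types, miR-1246 occurred in 19 small nuclear RNA transcripts, RNU2-1 of the U2 family among them, and miR-4485-3p in the mitochondrial rRNA MT-RNR2. miR-1246 stood at 3741, 9340, 10517 and 6246 CPM in P40, against 724, 307 and 191 CPM in lysate, and rose by 4.29 ± 0.47 on the log2 scale (edgeR adjusted p = 3.33e-07; 4.91 without lysate replicate 1). miR-4485-3p stood at 11224, 12790, 7409 and 3904 CPM in P40, against 2481, 519 and 636 CPM in lysate. It rose by 2.93 ± 0.61, and by 4.00 without lysate replicate 1, the library that came closest to P40. miR-3651, an exact copy of part of the small nucleolar RNA SNORA84, rose by less (1.17 ± 0.36, 3019 ± 1275 CPM in P40 and 1345 ± 187 CPM in lysate), and its call was lost without any 1 of P40 replicates 1 or 2 or lysate replicates 2 or 3 (0.94 to 1.18). These 3 were the only exact matches among the 25 miRNAs called higher that had a sequence. No miR-10396 or miR-663 entry matched, although miR-10396b lies in the rRNA gene RNA45SN1. The lack of a match in the searched transcripts therefore does not show that these entries are no copies of rRNA. None of the 29 called lower that had a sequence matched any of these 5717 transcripts exactly. Of the 145 uncalled miRNAs with a sequence, 1 did, namely miR-12136, a copy of part of the mitochondrial tRNA MT-TS1 (log2 fold change 1.37).

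Further entries of this kind rose: miR-4492 (5051, 7058, 5429 and 4919 CPM in P40, against 861, 219 and 0 CPM in lysate) by 4.15 ± 0.73, with 5.52 without lysate replicate 1 and 3.56 without lysate replicate 3. miR-4466 had 27 counts in P40 and 0 in lysate, at least 26.7-fold higher. miR-619-5p (13 and 0 counts, at least 12.9-fold), miR-5100 (7 and 0, at least 6.93-fold) and miR-3960 (5 and 0, at least 4.95-fold) rested on few counts. The call of miR-5100 was lost without P40 replicate 2 or lysate replicate 2 (log2 fold change 4.99 and 5.44), that of miR-3960 without lysate replicate 2 (4.93), and miR-619-5p fitted at 5.85 without P40 replicate 2. The sizes of miR-4516 and miR-4488 moved most with lysate replicate 1, and their calls were lost without other libraries. miR-4516 stood at 16649, 20166, 5292 and 6168 CPM in P40, against 6340, 928 and 700 CPM in lysate, so the groups overlapped through lysate replicate 1. It rose by 2.22 ± 0.69 in all libraries and by 3.94 without lysate replicate 1, and the call was lost without lysate replicate 2 (1.81), lysate replicate 3 (1.83) or P40 replicate 2 (1.85). miR-4488 (1932 ± 481 CPM in P40 and 427 ± 556 CPM in lysate) rose by 2.40 ± 0.75, by 4.19 without lysate replicate 1, and lost its call without lysate replicate 2 (1.84) or 3 (1.95).

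Over the whole list of entries resembling other RNA classes, 22 of 59 members were tested, 16 were higher, 2 lower and 4 not called, and the median log2 fold change was 3.87, against 0.06 over all 227. Setting the 5 members with no lysate count to their lower bounds gave a median of 2.86. In a fit of only the 7 libraries, 16 members were tested, 9 were higher and 1 lower. The main filter ran over libraries of all 5 groups, so an entry could be tested through counts in fractions of the medium alone. The split of calls therefore depends partly on that filter. Untested members went both ways, such as miR-1248 (7 counts in P40 and 24 in lysate), miR-1268a (1 and 14) and miR-1273h-5p (9 and 0). The 4 uncalled members were miR-7704, miR-3648, miR-12136 and miR-4508. miR-7704, which lies in HAGLR and HOXD1 and was the second most abundant miRNA of P40, stood at 95029, 111019, 36603 and 35367 CPM in P40, against 58370, 20789 and 20790 CPM in lysate. P40 replicates 1 and 2 lay above all lysate libraries, and replicates 3 and 4 lay below lysate replicate 1 (log2 fold change 1.06 ± 0.49, edgeR adjusted p = 0.117; 1.80 and past the threshold without lysate replicate 1). The list took 17.8%, 18.3%, 9.47% and 9.00% of counts in P40, against 8.57%, 4.17% and 3.81% in lysate. With miR-7704 left out it took 7.26%, 7.28%, 5.36% and 4.68%, against 4.05%, 2.36% and 1.83%.

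The 2 members that fell were miR-4454 and miR-1260b, known to resemble tRNA fragments. Nuclear tRNA was not among the RNA types searched for exact copies. The mitochondrial tRNA copy miR-12136 was not called (log2 fold change 1.37), and miR-5100, another entry grouped with tRNA, was called higher. miR-4454 stood at 2744, 5042, 1537 and 1640 CPM in P40, against 36145, 21563 and 15159 CPM in lysate, a log2 fold change of -3.14 ± 0.56 (edgeR adjusted p = 0.000223). The highest P40 library held far less than the lowest lysate library. miR-1260b had 1 count in P40, in replicate 3, and 86 in lysate, a ratio of 0.0346 (exact 95% counting interval 0.000865 to 0.198). Its fitted log2 fold change was -4.78, and -7.57 without P40 replicate 3.

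**Figure D2:**
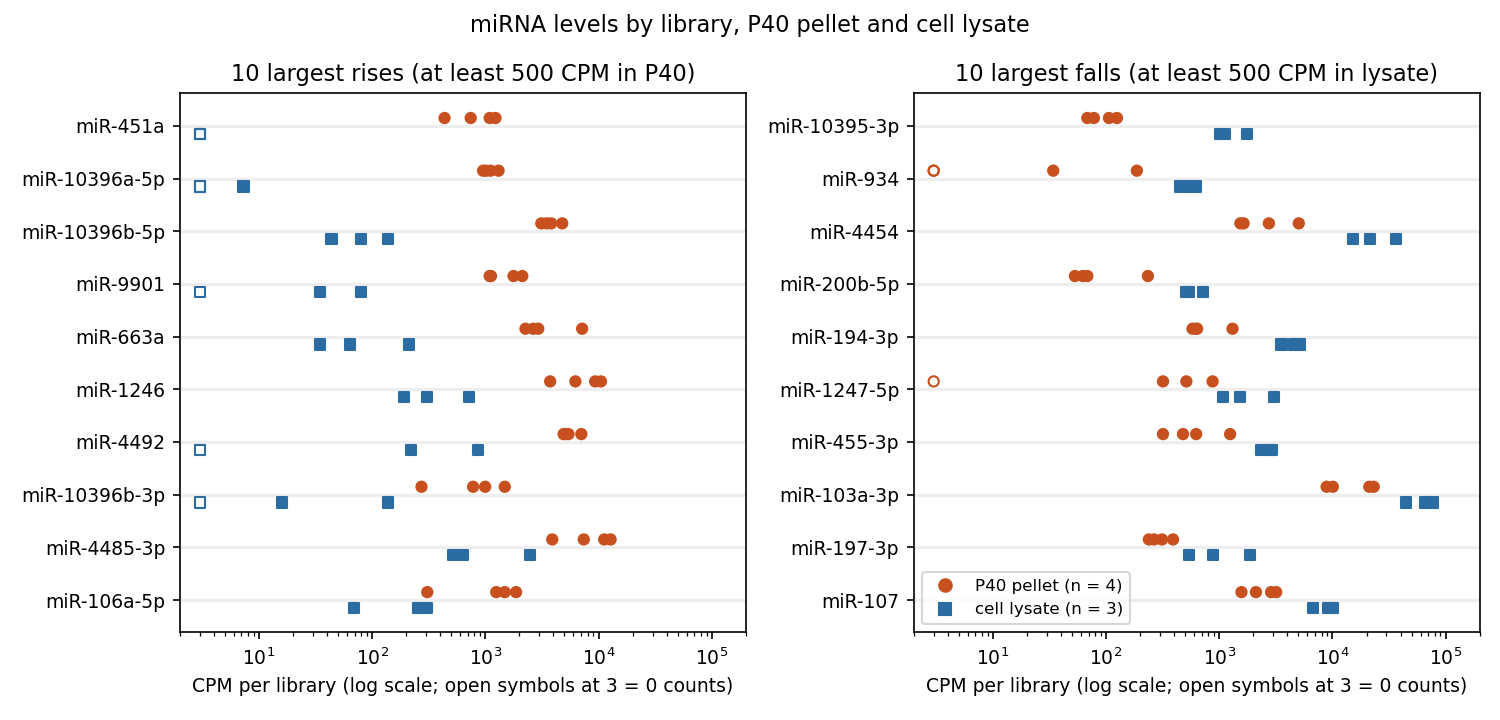
CPM per library (log scale, open symbols at 3 stand for 0 counts) of the 10 largest rises and 10 largest falls that averaged 500 CPM or more on the higher side and did not overlap, P40 as circles (n = 4) and lysate as squares (n = 3). miR-10396b-5p and miR-10396a-5p lie farthest from lysate for their spread, and miR-106a-5p and miR-1247-5p come close to overlap.

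Outside that list, several miRNAs of well-known hairpins rose. miR-451a, an erythroid miRNA cut by Argonaute 2 and not by Dicer, stood at 436, 743, 1229 and 1093 CPM in P40 and had no count in any lysate library. With 71 counts in P40 and 0 in lysate it was at least 70.3-fold higher (edgeR adjusted p = 5.11e-06). miR-486-5p, also abundant in red cells, stood at 2432, 1751, 1332 and 625 CPM in P40, against 517, 446 and 461 CPM in lysate (log2 fold change 1.70 ± 0.51; its call was lost without lysate replicate 2, at 1.65). miR-146a-5p, which dampens NF-kB signalling in immune and epithelial cells, stood at 1122, 1061, 1912 and 1249 CPM in P40, against 172, 504 and 525 CPM in lysate, and rose by 1.69 ± 0.48 (edgeR adjusted p = 0.0124). All 3 kept P40 libraries above lysate libraries.

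These were the members called on the list for blood cells and serum, of which 11 of 15 were listed, 5 tested, 3 higher and 0 lower. Beside them, 13.7% of all 227 tested miRNAs were higher and 13.2% lower. The summed share of the list was 0.583%, 0.446%, 0.617% and 0.572% in P40, against 0.0935%, 0.176% and 0.226% in lysate. The other 2 tested members were not called: miR-155-5p, known from activated lymphocytes, had 35 counts in P40 and 201 in lysate (log2 fold change -0.85), and the endothelial miR-126-3p had 14 and 38 (0.16). Of the untested white cell members, miR-223-3p had 2 counts in P40 and 0 in lysate, and miR-142-3p 0 and 1. miR-150-5p, a lymphocyte miRNA too rare to be tested, had 26 counts in P40 and 1 in lysate. Of the other cell type lists, liver had 1 of 3 members tested (miR-122-5p, log2 fold change 0.73), neural 5 of 10, mesenchymal 1 of 12 and muscle 0 of 7, with no call in any of them, though 1 neural member was higher without P40 replicate 2 or lysate replicate 2. Their summed shares ranged from 0.0498% to 0.0858% in P40 and 0.0146% to 0.0576% in lysate for liver, and from 0.310% to 0.441% in P40 and 0.323% to 0.399% in lysate for neural. For mesenchymal they ranged from 0.0578% to 0.0902% in P40 and 0.0160% to 0.0682% in lysate. For muscle they ranged from 0.0105% to 0.0575% in P40 and from 0 to 0.0140% in lysate. The neuron miRNAs miR-124-3p and miR-137-3p had 0 counts in both groups. Untested mesenchymal members also leaned to P40, such as miR-127-3p (11 counts in P40 and 0 in lysate) and miR-145-5p (16 and 7). The groups summed to 70031 counts in P40 and 260500 in lysate. The 1 tested mesenchymal member, miR-214-3p, leaned the other way (12 and 125, log2 fold change -1.47, not called). The part of other cells or of serum in these values was not tested.

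Of 22 miRNAs often found in extracellular vesicles, 17 were tested, 5 were higher and 0 lower, with a median log2 fold change of 0.31, beside 13.7% higher, 13.2% lower and a median of 0.06 over all 227. The 5 were miR-1246, miR-451a, miR-146a-5p and miR-486-5p, described above, and miR-100-5p, which restrains mTOR. miR-100-5p stood at 312, 212, 444 and 468 CPM in P40, against 138, 36.5 and 31.8 CPM in lysate, and rose by 2.65 ± 0.71. It reached 3.34 without lysate replicate 1 and lost its call without lysate replicate 2 (2.23). Without lysate replicate 2, 3 of the list were higher. The list took 10.8%, 9.22%, 12.0% and 12.9% of counts in P40, against 5.92%, 7.45% and 7.82% in lysate. Its abundant members miR-21-5p, which is raised in most carcinomas, miR-320a-3p, miR-23a-3p and miR-16-5p were not called (log2 fold changes 0.39, -0.19, 0.01 and 0.29).

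**Figure D3:**
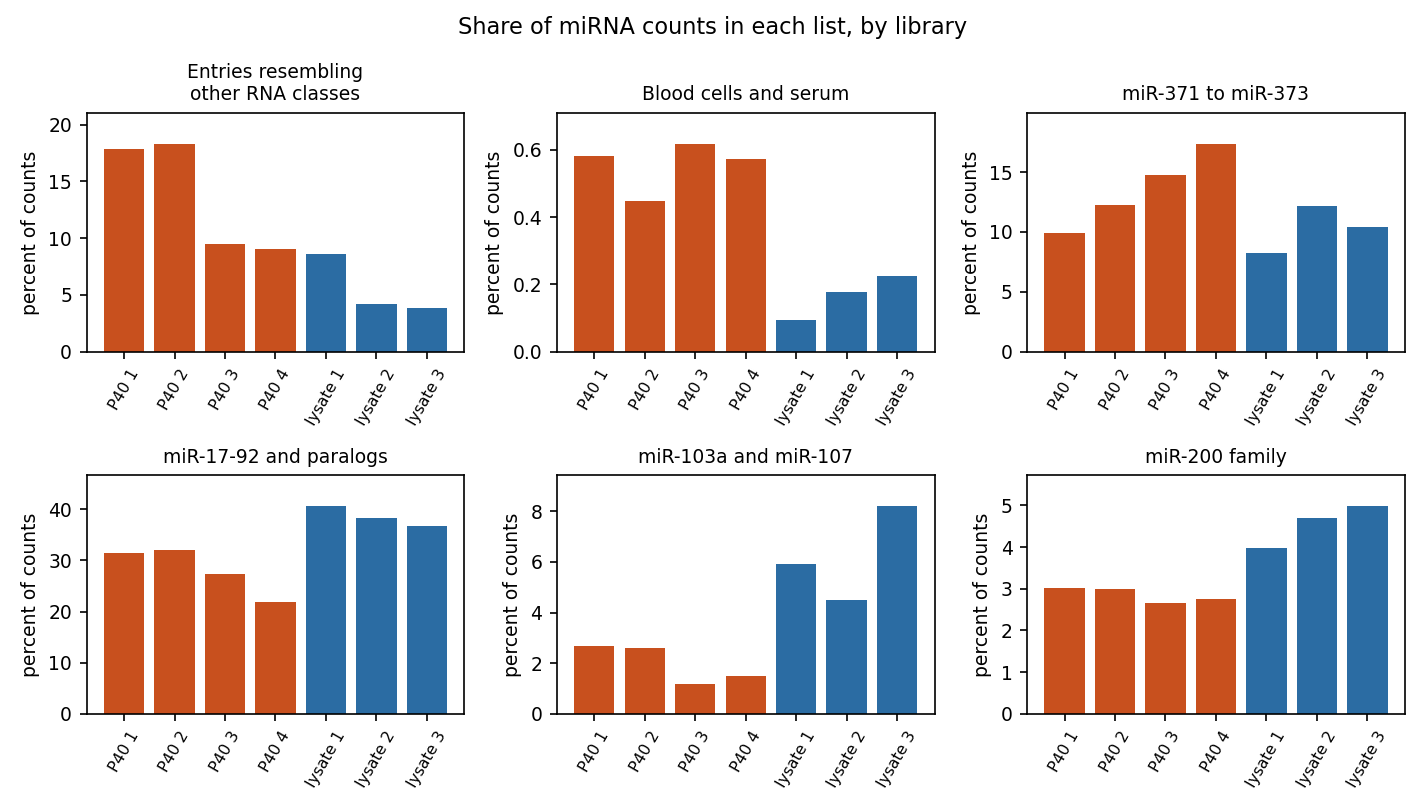
Percent of miRNA counts (bars from 0) held by 6 lists in each P40 library (left, 4 bars) and each lysate library (right, 3 bars). Entries resembling other RNA classes, blood and miR-371 to miR-373 stand higher on the P40 side, though lysate replicates overlap with P40 for the last, and miR-17-92, miR-103a with miR-107, and miR-200 stand higher in lysate.

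Other single rises were miR-193b-3p, which restrains growth in several carcinomas, and miR-148a-3p, abundant in digestive tissue. miR-193b-3p stood at 935, 2123, 1400 and 3747 CPM in P40, against 586, 738 and 493 CPM in lysate, and rose by 1.73 ± 0.42. miR-148a-3p (4037 ± 1569 CPM in P40, SD, n = 4, and 1659 ± 481 CPM in lysate, n = 3) rose by 1.27 ± 0.41, a call lost without any 1 of P40 replicates 3 or 4 or lysate replicates 1 or 2 (1.11 to 1.18). miR-7-5p, which restrains growth factor signalling, had 187, 0, 444 and 390 CPM in P40, against 0, 29.2 and 15.9 CPM in lysate, so P40 replicate 2 lay with lysate (3.56 ± 0.90, and 4.31 without lysate replicate 2). miR-320d, from a family made without Drosha, rose by 2.33 ± 0.83 with overlap. Its call was lost without P40 replicate 3 (1.66) or 4 (2.20), lysate replicate 1 (2.08) or lysate replicate 2 (1.98) and with the replicate number as a block (2.22, adjusted p = 0.0767), and it fitted at 3.20 without lysate replicate 3. miR-10400-5p rose by 4.10 ± 1.06 (286 ± 192 CPM in P40 and 9.74 ± 16.9 CPM in lysate; 7.05 without lysate replicate 2, 3.45 without P40 replicate 3).

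The clearest fall among abundant cell miRNAs was that of miR-103a-3p and miR-107, which lie in introns of the pantothenate kinase genes PANK2, PANK3 and PANK1, bear on insulin signalling and lipid metabolism, and share a seed. miR-103a-3p stood at 21138, 23138, 8878 and 10071 CPM in P40, against 66467, 44807 and 76799 CPM in lysate. miR-107 stood at 2868, 3184, 1571 and 2108 CPM in P40, against 10027, 6686 and 9178 CPM in lysate. For both, the groups were far apart and P40 replicates 3 and 4 lay below replicates 1 and 2. The log2 fold changes were -1.99 ± 0.34 and -1.83 ± 0.33 (edgeR adjusted p = 0.000135 and 0.000220), and both calls held in every setting tried. They were the 2 of 3 tested list members that were called (median -1.83), beside 13.2% called lower over all 227. In replicates 1 and 2 alone miR-103a-3p gave -1.29, and in replicates 3 and 4 alone -2.86.

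miR-23b-3p, which shares its first 18 bases with miR-23a-3p, stood at 3367, 3715, 4200 and 4684 CPM in P40, against 16470, 9901 and 11676 CPM in lysate, and fell by 1.67 on the log2 scale (SE 0.30, edgeR adjusted p = 0.000171). The highest P40 library held less than the lowest lysate library. miR-23a-3p stood at 3180, 3980, 6009 and 5777 CPM in P40, against 6202, 3478 and 4502 CPM in lysate, with overlap and a log2 fold change of 0.01 ± 0.32. The 2 names together fell by 0.94 (SE 0.27), a call lost without lysate replicate 1 (-0.67). The difference between the 2 relatives itself was not tested.

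miR-200c-3p, of the family that holds cells in the epithelial state by silencing ZEB1 and ZEB2, was the fourth most abundant miRNA of lysate. It stood at 21949, 26110, 18950 and 17566 CPM in P40, against 48550, 49074 and 45541 CPM in lysate. The lysate libraries were close together and all above P40 (log2 fold change -1.17 ± 0.24, edgeR adjusted p = 0.000772; lost with P40 replicates 1 and 2 only, -0.77, adjusted p = 0.0521). Of the 9 members of the miR-200 list, 7 were tested, 0 were higher and 3 lower, and the median was 0.03. The shares over all 227 were 13.7% higher and 13.2% lower. miR-200a-3p, miR-200b-3p, miR-141-3p and miR-429 were not called (0.03, 0.07, 0.52 and 0.92). The list took 3.02%, 3.00%, 2.65% and 2.76% of counts in P40, against 3.98%, 4.71% and 4.97% in lysate. miR-200c-3p and the gut miRNAs miR-192-5p and miR-194-5p were present in every library of both groups, and all are markers of the labelled epithelial cell type.

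Several falls took 1 strand of a hairpin and not the other. Of the 6 gut members listed (miR-192, miR-194 and miR-215), 5 were tested, and 0 were higher and 2 lower, beside 13.7% and 13.2% of all 227. Without P40 replicate 1 or lysate replicate 2, 1 gut member was higher. miR-194 and miR-192 are made from neighbouring hairpins switched on in gut and liver epithelium. miR-194-3p stood at 1309, 637, 580 and 625 CPM in P40, against 3549, 5166 and 4549 CPM in lysate, and fell by 2.50 (SE 0.40, edgeR adjusted p = 7.15e-05). miR-194-5p, the strand usually retained, stood at 2307, 1327, 751 and 1874 CPM in P40, against 3136, 1271 and 2291 CPM in lysate, with overlap and a log2 fold change of -0.52 ± 0.45. The 5p strand therefore made up 65.7% ± 7.74 of miR-194 counts in P40 (SD, n = 4), against 33.4% ± 13.6 in lysate (n = 3), and the lowest P40 library (56.4%) lay above the highest lysate library (46.9%). miR-192-3p had 2 counts in P40 and 65 in lysate, a ratio of 0.0914 (exact 95% counting interval 0.0108 to 0.344). Its call was lost without lysate replicate 3 (log2 fold change -3.16), and the fit gave -3.01 without P40 replicate 3 and -4.23 without P40 replicate 1. miR-192-5p was not called (0.39 ± 0.40), and its share of miR-192 counts was 99.3% ± 0.787 in P40, against 90.0% ± 7.67 in lysate.

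The same held for the 5p strands of miR-200b, miR-200a and miR-23a, whose 3p strands were not called. miR-200b-5p stood at 62.4, 53.1, 68.3 and 234 CPM in P40, against 724, 511 and 541 CPM in lysate, and fell by 2.61 (SE 0.75, edgeR adjusted p = 0.0124). Its share of miR-200b counts was 7.19% ± 3.69 in P40 and 40.8% ± 27.9 in lysate, without overlap. miR-200a-5p had 0, 265, 0 and 78.1 CPM in P40, against 517, 329 and 541 CPM in lysate (-2.46 ± 0.86). That call was lost without any 1 of P40 replicates 1, 3 or 4 or lysate replicates 1 or 3 (-2.44 to -1.91) and with the replicate block (-2.40, adjusted p = 0.0732), and the value was -4.55 without P40 replicate 2. miR-23a-5p had 2 counts in P40 and 49 in lysate, a ratio of 0.121 (exact 95% counting interval 0.0143 to 0.462), lost without P40 replicate 2 or 4 or lysate replicate 2 (-2.55 to -2.51), with -3.50 without P40 replicate 1. In the opposite direction, miR-455-3p fell by 2.04 (SE 0.46; 1247, 318, 478 and 625 CPM in P40, against 2343, 2806 and 2927 CPM in lysate), while miR-455-5p was not called (1.39 ± 0.69). Of 35 hairpins with both strands tested, the 5p share was higher without overlap in P40 for 5 and lower for 3, 13 had 1 strand called, 2 had both called the same way and 0 had strands called opposite ways. The strand shares rest on few counts, for miR-200a on 12 to 27 in each P40 library, and the differences in share were not tested.

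The miR-17-92 cluster and its paralogs, which promote growth and are raised in colorectal cancer, held 31.3%, 32.1%, 27.3% and 21.9% of counts in P40, against 40.5%, 38.3% and 36.7% in lysate. Of 29 members 17 were tested, 1 was higher and 4 lower, with a median of -0.41. Among all 227 miRNAs, 13.7% were higher and 13.2% lower. In P40 replicates 1 and 2 alone 0 were lower. miR-92a-3p, the most abundant miRNA of both groups, stood at 193301, 250217, 177997 and 110862 CPM in P40, against 432193, 329899 and 258344 CPM in lysate. The highest P40 library came close to the lowest lysate library, and the fall was small (log2 fold change -0.89 ± 0.27, edgeR adjusted p = 0.0149). It was lost without lysate replicate 1 (-0.63) or P40 replicate 4 (-0.68). miR-93-5p (19645 ± 6620 CPM in P40 and 41858 ± 7763 CPM in lysate) fell by 1.09, lost without lysate replicate 3 (-0.84). miR-92b-3p (1286 ± 473 CPM in P40 and 3312 ± 970 CPM in lysate) fell by 1.36, a call lost in 4 of 18 alternative settings. miR-25-5p (261 ± 96.1 CPM in P40 and 854 ± 224 CPM in lysate) fell by 1.70, and its call was lost without lysate replicate 2 (-1.55).

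miR-106a-5p went the other way. It stood at 1871, 1486, 307 and 1249 CPM in P40, against 68.9, 307 and 255 CPM in lysate, and rose by 2.40 ± 0.61 (edgeR adjusted p = 0.00468). P40 replicate 3 lay barely above the highest lysate library, and in P40 replicates 3 and 4 alone the call was lost (1.52). miR-17-5p, which differs from it by C1A, stood at 7109, 5042, 1537 and 3357 CPM in P40, against 2102, 5984 and 9926 CPM in lysate, and was not called (-0.51 ± 0.51). Summed over the seed AAAGUGC, which joins miR-93-5p, miR-17-5p, miR-20a-5p, miR-106a-5p, miR-106b-5p and miR-20b-5p, the log2 fold change was -0.81 ± 0.34 and was not called (adjusted p = 0.0793), though it passed without P40 replicate 1 (-1.07).

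Of 9 tested let-7 and miR-98 members, a family that restrains growth, 0 were higher and 2 lower (median -1.04). Over all 227 miRNAs, 13.7% were higher and 13.2% lower. let-7b-5p fell by 1.11 (1867 ± 281 CPM in P40 and 4043 ± 1029 CPM in lysate) and let-7a-5p fell by 1.27 (4857 ± 1985 CPM in P40 and 11769 ± 5539 CPM in lysate). Both calls were lost without lysate replicate 2 (-0.92 and -0.89), and that of let-7a-5p without P40 replicate 2 or 4 as well (-1.14 each), so the list held 0 lower without lysate replicate 2. Among the 5 tested members of the miR-371 to miR-373 cluster, known from embryonic stem cells, 0 were called (median -0.12), though 2 were higher without P40 replicate 1 and 1 was lower without P40 replicate 3. miR-373-3p, the third most abundant miRNA of both groups, stood at 43462, 61082, 43808 and 54572 CPM in P40, against 48067, 66472 and 61210 CPM in lysate, with overlap and a log2 fold change of -0.21 ± 0.29. miR-372-3p stood at 23570, 37413, 49408 and 49966 CPM in P40, against 17883, 27438 and 16352 CPM in lysate. Its log2 fold change of 0.96 ± 0.37 did not pass (edgeR adjusted p = 0.0607) but did so in 9 of 18 alternative settings, among them that without P40 replicate 1. The list took 9.94%, 12.2%, 14.8% and 17.3% in P40, against 8.26%, 12.2% and 10.4% in lysate. Abundant miRNAs that were not called also included miR-25-3p (-0.40 ± 0.28) and miR-191-5p (-0.32 ± 0.28).

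Further falls without overlap were miR-10395-3p (125, 106, 68.3 and 78.1 CPM in P40, against 1757, 1008 and 1129 CPM in lysate; log2 fold change -3.78 ± 0.72) and miR-934 (187, 0, 34.1 and 0 CPM in P40, against 448, 621 and 541 CPM in lysate; -3.31 ± 0.78, and -4.93 without P40 replicate 1). miR-378a-3p, encoded within the metabolic regulator PPARGC1B, stood at 7296, 10773, 9185 and 8432 CPM in P40, against 18434, 14855 and 17418 CPM in lysate, and fell by 0.92 (SE 0.25). Its call was lost in 5 of 18 alternative settings. miR-197-3p fell by 1.86 (302 ± 66.4 CPM in P40 and 1093 ± 686 CPM in lysate), miR-1247-5p fell by 2.09 (426 ± 365 CPM in P40 and 1892 ± 1042 CPM in lysate) and miR-484, made without Drosha, fell by 1.18 (3331 ± 1577 CPM in P40 and 7486 ± 2032 CPM in lysate). All 3 lost their calls without lysate replicate 1 (-1.23, -1.49 and -1.06), and miR-484 without lysate replicate 2 too (-1.04). Called miRNAs outside the naming rule were miR-574-5p (1.54), miR-4690-5p (23 counts in P40 and 0 in lysate) and miR-10394-3p (15 and 0) on the high side. On the low side they were miR-941 (-1.63), miR-744-5p (-1.49), miR-424-3p (-2.44), miR-652-3p (-1.62), miR-296-5p (-1.54) and miR-28-3p (-0.96). The list of miR-99, miR-100, miR-10 and miR-125 relatives had 7 tested, 1 higher and 0 lower (median 0.44), with 0 higher without lysate replicate 2. The list of hairpins made without Drosha or without Dicer had 8 tested, 2 higher and 1 lower (0.41), and 1 higher and 0 lower without lysate replicate 1 or 2. The colorectal tumour list had 13 tested, 1 higher and 1 lower (-0.39), and 0 lower without lysate replicate 1 or P40 replicate 4. All these list counts stand beside 13.7% higher and 13.2% lower over all 227 miRNAs.

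Counts were also summed by seed, which joins relatives such as miR-103a-3p and miR-107. It does not join miR-10396a-5p with miR-10396b-5p, which contains it, since their seeds differ: miR-10396a-5p (higher) shares the seed GCGGGGC with miR-744-5p (lower), and their sum was not called (log2 fold change -0.10 ± 0.33). Of 177 seed families tested, 26 were higher (14.7%) and 22 lower (12.4%), and of the 40 with 2 or more counted members 7 were higher and 7 lower. The seed GGCGGGG, of miR-10396b-5p, miR-663a and the sparse miR-1908-5p, stood at 11741, 5976, 7900 and 4969 CPM in P40, against 330, 445 and 159 CPM in lysate (log2 fold change 4.58 ± 0.64, edgeR adjusted p = 1.68e-05). GCCCCGG, of the miR-10396 3p strands, rose by 3.88 ± 0.68 (6.63 without lysate replicate 2), and ACUGGCC, of miR-193b-3p and miR-193a-3p, by 1.54 ± 0.42. GCAGCAU, of miR-103a-3p and miR-107, stood at 26434, 24297, 10696 and 11235 CPM in P40, against 66535, 52246 and 86161 CPM in lysate (-1.91 ± 0.33). AAUACUG, of miR-200c-3p, miR-200b-3p and miR-429, gave -1.04 ± 0.24, AUCUUAC, of miR-200b-5p and miR-200a-5p, -2.51 ± 0.61, and GGGUUCC, of miR-23a-5p and miR-23b-5p, -2.95 ± 0.72. These 7 kept their sign in every setting tried, and all but AAUACUG kept their call wherever they were tested. AAUACUG lost its call in the fit of only the 7 libraries (-0.83, adjusted p = 0.0746). GGGCUGG, of miR-4492 and miR-5001-5p, rose by 4.15 ± 0.71 and also kept its call in every setting tried. The other called families of 2 or more members were less stable. AAAGCUG, of miR-320b, miR-320c and miR-320d (1.26 ± 0.37), lost its call without lysate replicate 2 (1.09). Their relative miR-320a-3p had no matched sequence and stayed outside this sum, though it held most counts of the miR-320 names. It had 1457 counts in P40 and 4954 in lysate and was not called (-0.19), so the rise does not extend to the whole miR-320 family. GAGAACU, of miR-146a-5p and miR-146b-5p (1.62 ± 0.53), lost it without P40 replicate 3 (1.26) or lysate replicate 2 (1.62). CAGUGCA, of miR-148a-3p and relatives (1.23 ± 0.41), lost it without P40 replicate 3 (1.07) or lysate replicate 1 (1.11) or 2 (1.13). CUGGACU, of miR-378a-3p and miR-378c (-0.85 ± 0.24), lost it without P40 replicate 4 (-0.72) or lysate replicate 1 (-0.73). Without lysate replicate 2, the deepest library, 17 families were higher and 20 lower. The let-7 seed GAGGUAG did not pass (-0.90 ± 0.37, adjusted p = 0.0779), but did without P40 replicate 3 (-1.23) or lysate replicate 1 (-1.06). The seed AUUGCAC of miR-92a-3p, miR-25-3p, miR-92b-3p and the rare miR-32-5p fell by 0.78 (SE 0.25), a call lost without P40 replicate 4 (-0.52) or lysate replicate 1 (-0.54) or 2 (-0.84).

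The miRNAs called higher were richer in G and C by their median, through the entries resembling other RNA classes; the difference was not tested. Of the 227 tested miRNAs, 199 matched 1 mature RefSeq sequence. The median share of G and C was 68.2% for the 25 called higher, 54.5% for the 29 called lower and 47.8% for the 145 not called. At 70% or more lay 12 of the 25 called higher, 1 of the 29 called lower and 10 of the 145 not called. The difference followed the list of entries resembling other RNA classes: its 14 called higher had a median of 87.6%, and the 11 called higher outside the list 47.8%. The 23 tested miRNAs of 70% or more took 16.4%, 16.3%, 7.33% and 7.96% of counts in P40, against 7.14%, 2.77% and 2.67% in lysate. Lengths of 19 nt or less were found for 7 of those called higher, 1 called lower and 5 not called. Sequence motifs were searched as 4 letters on the mature strand only. CGGG occurred in 36.0% of miRNAs called higher, 6.90% called lower and 10.1% of all with a sequence, while GGAG occurred in 16.0%, 10.3% and 10.1% and UGUG in 12.0%, 13.8% and 14.1%. A match describes the letters and is no site, and whether base composition bore on capture or ligation was not tested.

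**Figure D4:**
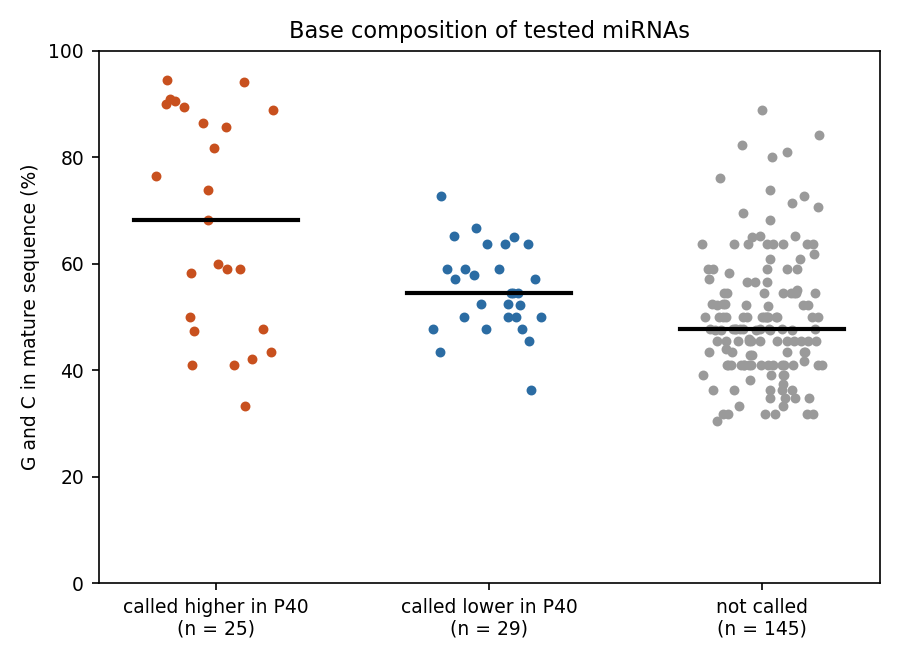
Percent of G and C in the mature sequence (vertical axis) of the 199 tested miRNAs with a sequence, by call, 1 point each with random horizontal spread and a bar at the median. Of the 25 called higher in P40, 12 lay at 70% or more, as did 10 of the 145 not called. The rest of those called higher lay from 33.3% to 68.2%, within the range of the uncalled miRNAs (30.4% to 88.9%).

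P40 replicates 1 and 2 were set apart from 3 and 4 as a check. All 31 called higher lay above the lysate mean in both pairs and all 30 called lower lay below it in both, which the choice of the called miRNAs favours. The pairs differed by over 1 on the log2 scale for 20 of the 61 and by over 2 for 5, and the median difference in size was 0.73 for the called and 0.83 for all tested miRNAs. The largest difference toward replicates 1 and 2 was that of miR-10401-5p (1247, 265, 102 and 0 CPM in P40, against 0, 21.9 and 63.6 CPM in lysate). Its call, at 3.58 ± 1.13, was lost without P40 replicate 1 (2.00) or lysate replicate 2 (3.22) and with the replicate block (3.03, adjusted p = 0.0521), and its value was 4.52 without lysate replicate 3. miR-619-5p and miR-1247-5p differed next in that direction, and miR-7-5p, miR-320d and miR-10400-5p in the other. With replicates 1 and 2 alone 32 miRNAs were higher and 13 lower, and with replicates 3 and 4 alone 33 were higher and 36 lower. miR-10396b-5p and miR-10396a-5p differed by less than 0.3 between the pairs, whereas the falls of miR-103a-3p, miR-4454 and miR-484 were deeper in replicates 3 and 4 by 1.22, 1.21 and 1.20.

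**Figure D5:**
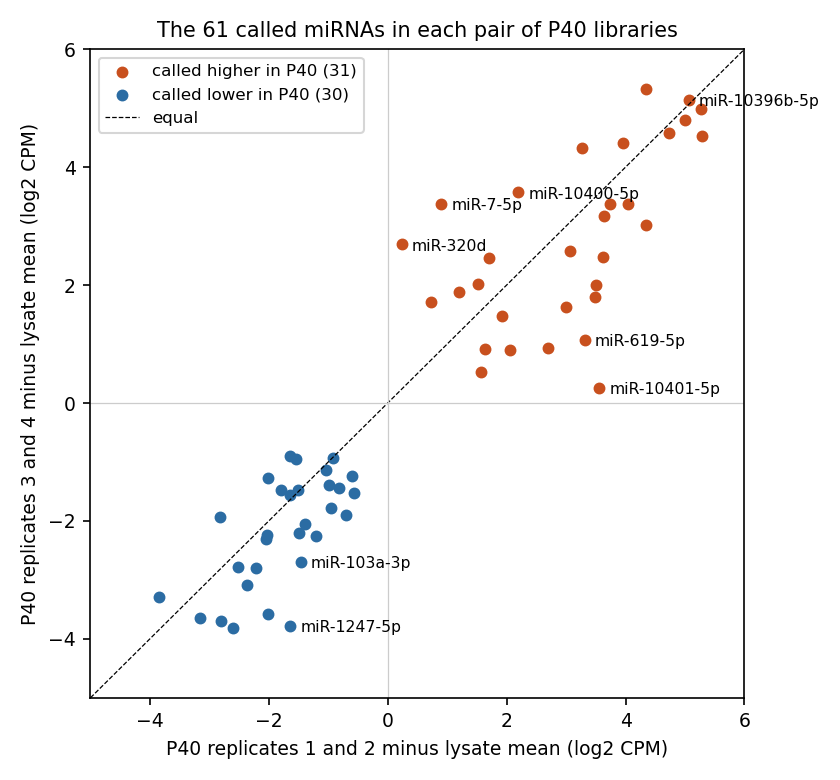
Log2 CPM of P40 replicates 1 and 2 minus the lysate mean (horizontal axis) and of replicates 3 and 4 minus the lysate mean (vertical axis) for the 61 called miRNAs, with a dashed line where both are equal. All points lie in the quadrants where both pairs have 1 sign, and miR-10401-5p, miR-7-5p and miR-320d lie far from the line.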

How the data were processed

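The authors deposited 1 file per library with raw counts per mature human miRNA, listing miRNAs with at least 1 count, and names missing from a file were taken as 0. The submitters' processing notes name Bowtie2, cutadapt 1.16 and FastQC, and the build GRCh38. Their order and settings, the filter before counting, the miRNA release and the treatment of reads that fit several names are not given in the sources used here. No molecular identifiers are named, so intervals and floors cover counting error only.

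Counts were tested in R 4.3.3 with edgeR 4.0.16. Libraries with under 100 listed miRNAs were left out (1 supernatant library of another group), and 18 libraries of 5 groups were fitted together so that they share 1 estimate of spread (common biological coefficient of variation 0.419). filterByExpr (minimum count 10, minimum total 15) kept 227 of 1043 miRNAs. TMM scaled the libraries, a robust quasi-likelihood F test compared P40 with lysate, and Benjamini-Hochberg adjustment ran over all 227. log2 CPM used a prior count of 2. SE is the size of the log2 fold change over the root of F. Counts of 933 miRNAs with 1 RefSeq sequence were also summed by seed, and the rest stood alone. The fit was tested on simulated data.

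Alternatives were DESeq2 1.42.0, other scalings, filters, fitted samples and depth, the replicate number as a block and leaving out each library. The labels give a batch number equal to the replicate number, which pairs libraries by label. Deviations of same-numbered P40 and lysate libraries correlated at -0.00468, -0.190 and 0.0626. miRNAs were named by a rule: the 5 most abundant per group, the 10 largest non-overlapping rises and falls among miRNAs averaging 500 CPM or more on the higher side, called list members, called members of called families of 2 or more, the 3 called with the most positive and the 3 with the most negative difference between the P40 pairs, and the 5 most abundant uncalled. Examples outside it (strand partners, relatives, untested markers, uncalled list members) were added beside a named miRNA. The comparison, the 16 lists and the named miRNAs were chosen with earlier results of these data known. One P40 library, replicate 3, has a differently formed file name, and whether it was processed otherwise is not known.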

Additional observations from a re-analysis of the deposited data

Results flagged for a closer look

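The 4 P40 values of 58 named miRNAs and 16 list shares, 74 groups in all, were checked for a library far from the other 3, by the gap to its nearest neighbour over the whole range, against Dixon's 95% critical value. Chance flags about 1 in 20 such groups, and 5 were found. miR-194-3p stood at 1309 CPM in P40 replicate 1, with the other 3 libraries between 580 and 637 CPM. miR-663a stood at 7171 CPM in P40 replicate 1, with the others between 2264 and 2936 CPM. miR-663b stood at 1015 CPM and miR-200b-5p at 234 CPM in P40 replicate 4, with the others between 212 and 312 CPM and between 53.1 and 68.3 CPM. miR-1260b stood at 34.1 CPM in P40 replicate 3, which is its 1 count in P40. In all 5 the outlying library still lay on the same side of every lysate library as the rest.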

How the results depend on the processing

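Under 18 alternative settings no call of the 52 called miRNAs named by rule turned sign, 21 kept their call in every setting that tested them, and 754 of 878 values kept it. The number of miRNAs higher in P40, 31, became 47 with library size only, 48 with DESeq2's Wald test, 16 in a fit of only the 7 libraries (149 tested) and 15 of 196 without entries resembling other RNA classes. The number lower, 30, became 19, 31, 11 and 26 in that order, 12 at equal depth (140 tested) and 13 with P40 replicates 1 and 2 only. Families higher, 26, became 13 in the fit of 7 libraries (116 tested), 13 at equal depth (110 tested) and 17 with only P40, P100 and lysate (127 tested), and families lower, 22, became 6, 14 and 16. Leaving out 1 library gave 23 to 35 miRNAs higher, 22 to 33 lower, 17 to 31 families higher and 17 to 29 lower. The lowest counts of rises, 23 and 17, came without lysate replicate 2, the deepest library.

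With the replicate number as a block 28 miRNAs were higher and 28 lower, 56 of the 61 calls were kept, and families gave 27 and 22. Among named miRNAs the block removed the calls of miR-10401-5p, miR-200a-5p and miR-320d and no other. Uncalled miRNAs near 0 changed sign: miR-191-5p to 0.051 and miR-373-3p to 0.13 with library size only, miR-373-3p to 0.0083 at equal depth and 0.039 with P40 replicates 1 and 2 only, and miR-21-5p to -0.15 with replicates 3 and 4 only. Fewer miRNAs or samples entered the smaller fits, and the cause of the other shifts was not tested. The fit of P40, P100 and lysate and the one without other RNA classes were added after the data were seen. P40 depth, 10490 to 26096 counts, limits statements on miRNAs below about 115 to 286 CPM there, before TMM scaling.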
